A study of Mus musculus with 186 samples.

Results

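The 10 genes described here encode the pore subunits of the AMPA-type glutamate receptor and proteins that travel with it. They are Gria1, Gria2, Gria3 and Gria4 (pore subunits), Cacng2, Cacng3 and Cacng8 (transmembrane AMPA receptor regulatory proteins, TARPs), Cnih2 and Cnih3 (cornichon proteins), and Gsg1l (germ cell-specific gene 1-like, an inhibitory auxiliary subunit). They were chosen by name, and all 10 are among the 28338 gene symbols of the counts table, where none of their values was 0 and the lowest was 120 counts in a library.

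AMPA receptors are tetramers of pore subunits that carry most fast excitatory transmission in the brain. Auxiliary proteins bind the pore, help carry it to the cell surface and the synapse, and change how it opens, closes and desensitizes. Gria2 transcripts are edited so that the receptor passes little calcium, and phosphorylation of the Gria1 product by protein kinase A (PKA) raises channel opening and surface delivery. A-kinase anchoring proteins, the family that Akap11 belongs to, hold PKA near its substrates.

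RNA was sequenced from 186 microdissected samples of frozen mouse brain, 96 at 4 weeks and 90 at 12 weeks of age. The regions were STR (striatum), TH (thalamus), SN (substantia nigra), HP (hippocampus), PFC (prefrontal cortex) and SSC (somatosensory cortex). Mice were wild type (WT), Akap11 +/- (HET) or Akap11 -/- (KO). The labels give no treatment, sex, strain or Cre driver, and they do not say how the allele was made. There were 36 groups, 30 of 5 libraries and 6 of 6, and the library totals ran from 20.8 to 73.3 M (mega) expected counts. The labels number the samples but do not say that replicates of a group are separate animals, so the p-values measure the spread between these samples. In bulk tissue, fewer cells of a type and less RNA per cell cannot be told apart.

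Levels are depth-scaled counts (CPM) on 1 scale for all 186 libraries. Changes are log2 fold changes ± SE from edgeR's quasi-likelihood test, with p-values adjusted by the Benjamini-Hochberg method over all genes tested. A gene is called when the adjusted p is under 0.05. Akap11 itself was lower in KO than in WT by 3.65 to 4.30 on the log2 scale in the 12 sets of region and age. In 4-week SN, however, Akap11 was at 44.8 CPM in the library labelled WT 92, against a WT median of 221. Each of 11 libraries at 4 weeks stood apart on marker genes of another region. They are STR WT 92 and KO 51, 161 and 163, TH WT 913, 914 and 23, and SN WT 42 and 92 and KO 44 and 91. They were listed with results of these data known, and values without them are given beside results that they change. In 4-week STR, KO 12 and KO 932 are the only KO libraries left without them. The list holds no SSC, HP or PFC library. Yet over both ages and all genotypes the striatal marker score, on the log2(CPM + 1) scale, reached 6.97 in SSC (median 3.87). The thalamic score likewise reached 7.20 in HP (median 5.16), so the list does not cover every uneven library.

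The cornichon genes Cnih2 and Cnih3 are shown by sequence because the products are close relatives, and in WT mice STR was the second highest region for Cnih2 and the lowest for Cnih3. The sequences are the 250 bases before the start of the gene, from RefSeq on GRCm38.p6, with the GC box (GGGCGG on either strand, a site for Sp1-type factors) in capitals. For Cnih2 this is chr19:5098522-5098771 on the minus strand, and for Cnih3 chr1:181352378-181352627 on the plus strand.
Cnih2: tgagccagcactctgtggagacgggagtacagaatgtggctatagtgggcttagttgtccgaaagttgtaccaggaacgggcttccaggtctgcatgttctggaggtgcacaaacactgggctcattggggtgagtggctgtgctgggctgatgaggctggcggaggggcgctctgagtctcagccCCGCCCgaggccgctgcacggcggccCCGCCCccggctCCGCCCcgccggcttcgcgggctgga
Cnih3: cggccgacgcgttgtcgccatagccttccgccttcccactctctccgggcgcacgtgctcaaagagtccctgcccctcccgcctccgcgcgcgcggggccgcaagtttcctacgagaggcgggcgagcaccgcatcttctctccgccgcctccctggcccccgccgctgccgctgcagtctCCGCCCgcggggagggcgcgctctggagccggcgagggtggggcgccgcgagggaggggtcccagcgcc
The Cnih2 stretch holds 3 GC boxes and the Cnih3 stretch 1. In the window from 250 bases before to 50 after the start, G and C made up 67.3% of the Cnih2 and 75.3% of the Cnih3 bases, against a median of 52.7% over the 32851 promoters in the table. The same windows held 25 and 42 CG dinucleotides, against a median of 7. RefSeq entries were matched for 7 of the 10 genes, and Gria1, Gria3 and Gsg1l are named only. The windows of Cacng2, Cacng3 and Cacng8 lie 748, 1252 and 3359 bases inside the GENCODE gene, and those of the other 4 at its start. GC boxes were found in Cnih2 and Cnih3 of those 7 and in 35.7% of all promoters. A cAMP response element, searched on both strands as TGACGTCA (1.79% of all promoters) or as TGACG (20.8%, which every TGACGTCA also holds), was in none of the 7 windows. GCGGGGGCG (2.91%) and TATAAA (13.6%) were in none of them either.

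The pore subunits are large genes on 4 chromosomes. On GRCm38, Gria1 lies at chr11:57011387-57330244 (plus strand), Gria2 at chr3:80681450-80802835 (minus), Gria3 at chrX:41400854-41678601 (plus) and Gria4 at chr9:4417896-4796234 (minus). The TARP genes lie at chr15:77991748-78120028 (Cacng2, minus), chr7:122670492-122769393 (Cacng3, plus) and chr7:3390683-3415648 (Cacng8, plus). Cnih2 lies at chr19:5092868-5098521 (minus), Cnih3 at chr1:181352628-181460641 (plus) and Gsg1l at chr7:125878420-126082411 (minus). Cnih2 overlaps Yif1a on the opposite strand, whose median was 11.7 and highest value 48.4 CPM, and because the strand setting of the counting is not given, reads in the overlap may have been assigned to either gene. Cacng8 overlaps the antisense gene Gm44151, whose median was 0 CPM.

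In WT mice the 10 genes differed in the region where they were highest. At 12 weeks HP had the highest mean for Gria1, Cacng8 and Cnih2, STR for Gria2, Cacng3 and Gsg1l, PFC for Gria3 and Cnih3, and TH for Gria4 and Cacng2. Of 150 comparisons of a member between 2 regions, 110 were called at 4 weeks, when 52.7% of all such comparisons over all genes were called. At 12 weeks 131 of 150 were called, against 60.4% of all.

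**Figure D1:**
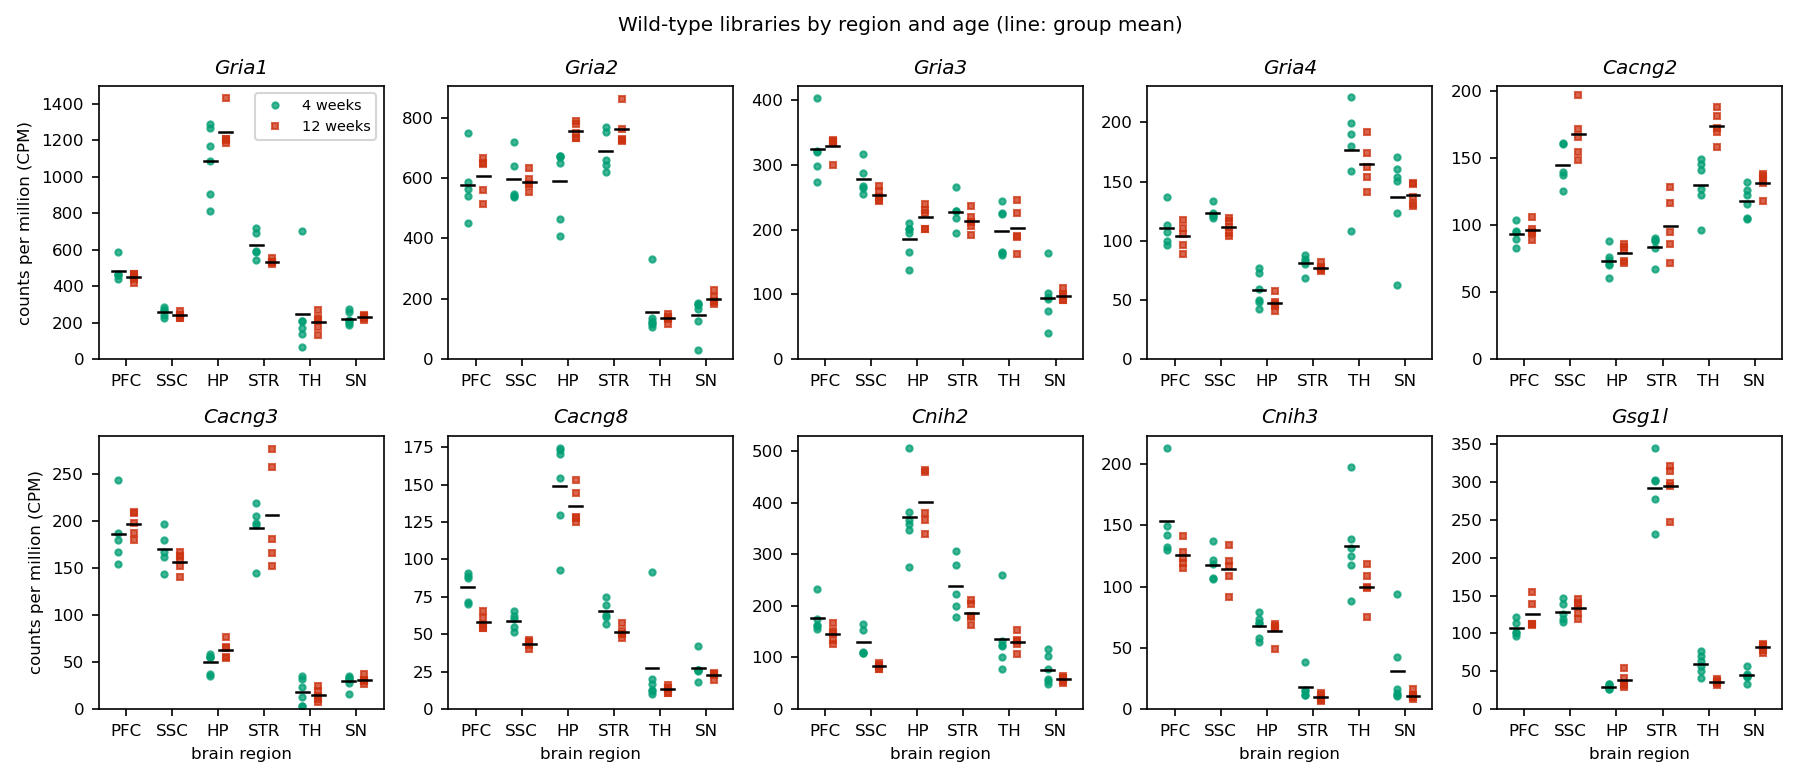
Levels of the 10 genes in WT mice by region, in CPM, with 4 weeks as circles and 12 weeks as squares. Each point is 1 library and each short line the group mean. Gria1, Cacng8 and Cnih2 peak in HP, Gsg1l in STR and Gria4 in TH, and Cnih3 is near 10 CPM in 12-week STR and SN, while single 4-week TH and SN libraries sit far from their groups (705 CPM of Gria1 in TH, 94.4 of Cnih3 in SN).

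Gria1, whose product PKA phosphorylates, had the widest range of the pore subunits, 6.11-fold between the highest and lowest region means at 12 weeks. It was 1247 ± 103 CPM in HP (SD, n = 5), 535 ± 12.3 in STR and 450 ± 19.7 in PFC. HP exceeded STR by 1.21 ± 0.11 on the log2 scale (adjusted p = 9.84e-17), and STR exceeded PFC by 0.27 ± 0.11 (adjusted p = 0.0227). SSC (241 CPM), SN (231 CPM) and TH (204 ± 53.1 CPM) followed, and neighbours in that order did not differ beyond their spread (adjusted p = 0.422 and 0.152). The 6 TH libraries at 4 weeks ranged from 66.9 to 705 CPM, the latter in WT 913.

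Gria2, whose edited subunit limits calcium entry, was alike at the top of its order. STR held 761 ± 59.5 and HP 757 ± 26.4 CPM at 12 weeks (adjusted p = 0.881), above PFC (608 ± 66.9) and SSC (588 ± 29.7), which also did not differ beyond their spread (adjusted p = 0.794). SN held 200.2 ± 18.8 and TH 136 ± 12.1 CPM, and the highest mean was 5.61-fold above the lowest. Gria3, the X-linked pore subunit, was highest in PFC (329 ± 16.6 CPM) and lowest in SN (98.3 ± 7.80), with HP, STR and TH between 203 and 219 CPM and not distinguished as neighbours (adjusted p = 0.816 and 0.214).

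Gria4, the subunit best known for fast-gated receptors, ran in the opposite order to Gria1. Its mean at 12 weeks was 165 ± 19.2 CPM in TH, 139 ± 9.38 in SN, 112 ± 6.37 in SSC, 104 ± 11.4 in PFC, 77.4 ± 3.08 in STR and 47.7 ± 6.37 in HP. Each step of that order was called except SSC to PFC (adjusted p = 0.236). Over the means of the 12 WT groups, which share a scale and differ in depth, Pearson's r between Gria1 and Gria4 was -0.96 on the log2 scale. Each region enters at both ages, so the 12 means are not independent points.

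Levels were compared between the pore subunits only per kilobase of exon. By that measure Gria1 made up 72.4 ± 1.71% of the sum over the 4 subunits in 12-week HP (SD, n = 5), Gria2 17.1 ± 0.84%, Gria3 7.81 ± 0.59% and Gria4 2.67 ± 0.44%. In STR the shares were 51.7% Gria1, 28.5% Gria2, 12.6% Gria3 and 7.16% Gria4. SSC was the most even, with 32.9% Gria1, 31.2% Gria2, 21.2% Gria3 and 14.6% Gria4. TH had the lowest Gria2 share, 9.78 ± 0.57%, and the highest Gria4 share, 29.5 ± 4.38%, while its Gria1 share ranged from 25.3% to 48.3% between libraries. The length matters here: with the longest transcript in place of all exons, the Gria2 share became 20.96% in HP, 32.6% in STR and 11.0% in TH, and Gria2 passed Gria1 in SSC (33.5% against 25.6%).

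**Figure D2:**
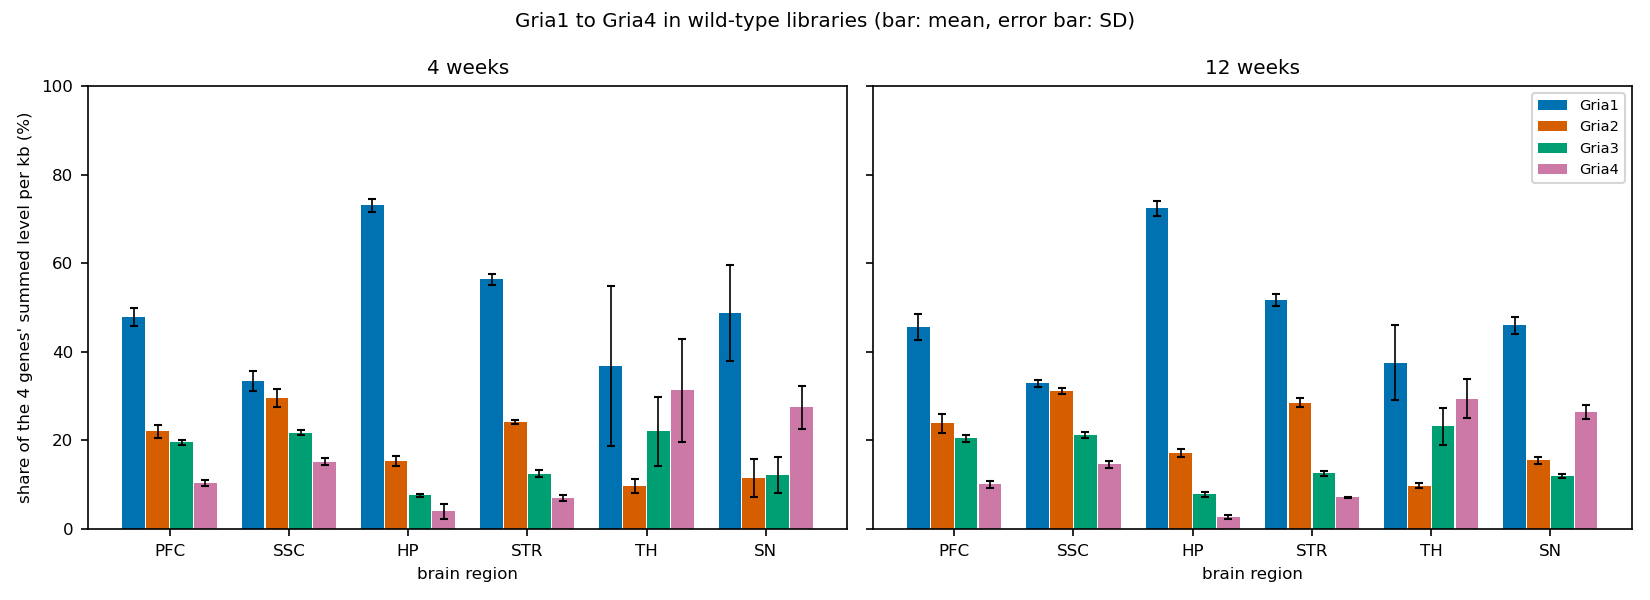
Share of each pore subunit in the sum of Gria1 to Gria4, in percent of CPM per kilobase of exon, by region in WT mice at 4 and 12 weeks. Bars are group means and error bars SD. Gria1 takes 72.4% in 12-week HP and 32.9% in SSC, and Gria4 takes 29.5% in TH.

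The TARPs anchor the receptor at the synapse and slow its closing, and the 3 measured here had different maps. Cacng2, whose product is stargazin, was the flattest. It ranged from 174 ± 11.5 CPM in TH and 167 ± 18.8 in SSC, which did not differ beyond their spread (adjusted p = 0.903), to 79.0 ± 6.51 in HP, a 2.20-fold range. Cacng3 spanned 13.6-fold, from 207 ± 56.8 CPM in STR to 15.1 ± 6.61 in TH. STR, PFC (197 ± 12.8) and SSC (156 ± 10.3) were not distinguished as neighbours (adjusted p = 0.676 and 0.158).

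Cacng8, the TARP most tied to hippocampal receptors, spanned 10.3-fold. Its level at 12 weeks was 136 ± 12.4 CPM in HP, 58.4 ± 5.01 in PFC, 51.5 ± 3.93 in STR, 43.8 ± 2.39 in SSC, 22.6 ± 1.88 in SN and 13.1 ± 2.28 in TH. HP lay 1.23 above PFC on the log2 scale (adjusted p = 1.65e-21), and only PFC and STR were neighbours that did not differ beyond their spread (adjusted p = 0.0947). Its 12 group means followed those of Gria1 (r = 0.90) and ran against those of Gria4 (r = -0.89).

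The cornichons also bind AMPA receptors and slow their deactivation. Cnih2 held 402 ± 56.8 CPM in 12-week HP, 187 ± 19.7 in STR, 145 ± 15.9 in PFC, 130.4 ± 16.97 in TH, 82.8 ± 4.61 in SSC and 57.6 ± 4.92 in SN. HP exceeded STR by 1.09 on the log2 scale (adjusted p = 8.24e-17). Cnih3, whose sequence before the start is shown above beside that of Cnih2, had STR at the other end of its order. It held 126 ± 10.2 CPM in PFC, 114 ± 15.6 in SSC, 100.1 ± 15.9 in TH and 63.9 ± 8.36 in HP, but 10.9 ± 3.16 in SN and 9.73 ± 2.65 in STR. The HP to SN step was 2.57 on the log2 scale (adjusted p = 1.11e-26), and SN and STR did not differ beyond their spread (adjusted p = 0.430).

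Gsg1l, whose product binds AMPA receptors and reduces their current, was the member most concentrated in STR. It held 295 ± 29.1 CPM there at 12 weeks, 1.14 above SSC on the log2 scale (adjusted p = 2.53e-14). SSC (134 ± 10.6) and PFC (126 ± 19.9) did not differ beyond their spread (adjusted p = 0.494), SN held 81.4 ± 5.03, and HP (37.8 ± 10.2) and TH (35.7 ± 2.81) were lowest (adjusted p = 0.386 between them). Per kilobase of exon, 12-week STR held 75.2 CPM of Gsg1l and 74.4 of Cacng3, against 22.0 of Cacng8 and 18.01 of Cacng2. In HP the order was 57.9 of Cacng8, 22.8 of Cacng3, 14.3 of Cacng2 and 9.65 of Gsg1l.

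KO differed from WT at few of these genes. Of 120 values (10 genes in 12 sets), 5 were called and all 5 were lower in KO, while 0.644% of all values over all genes were called. At an unadjusted p under 0.05 there were 22. The 5 are Cacng8 in STR at both ages, Cacng2 and Gsg1l in 12-week STR, and Gsg1l in 12-week SN. The other 16 values in STR ran from -0.42 to 1.03 on the log2 scale. In 12-week STR 3 of 10 members were called against 4.42% of the 15622 genes tested (2.6% lower), in 4-week STR 1 of 10 against 3.35% (1.75% lower), and in 12-week SN 1 of 10 against 0.0364%, all of them lower. The median change of the members was -0.16 in 4-week STR, -0.041 in 12-week STR and -0.016 in 12-week SN, beside -0.0015, 0.0053 and -0.0051 over all genes tested. Without the 4 libraries that stood apart the 4-week STR median was 0.024, with 4 of 10 members below 0, beside -0.019 over all genes. That fit keeps only KO 12 and KO 932 of the KO libraries.

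**Figure D3:**
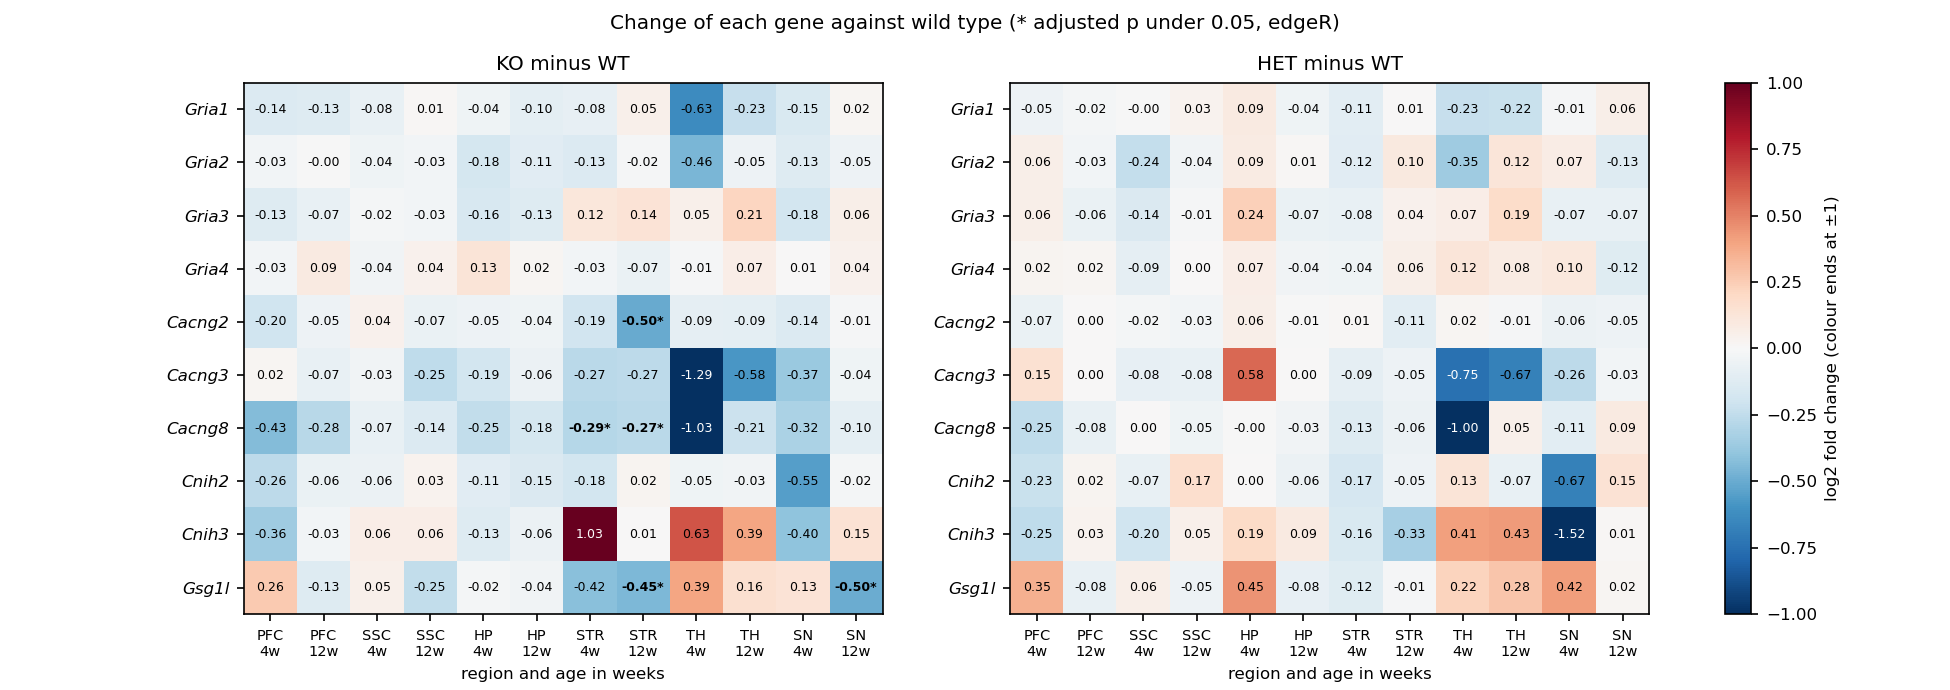
Log2 fold change of KO (left) and HET (right) against WT for each of the 10 genes (rows) in each region and age (columns), as colour and number, with called values starred. The 5 starred values are all in KO and all below 0, the Cacng8 and Gria2 rows are below 0 in all 12 KO sets, and no HET value is starred.

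None of the pore subunits was called in KO in any set. Their changes ran from -0.63 for Gria1, -0.46 for Gria2, -0.18 for Gria3 and -0.067 for Gria4 at the lowest, to 0.047, -0.0024, 0.21 and 0.13 at the highest. The lowest Gria1 and Gria2 values are from 4-week TH and were -0.075 and -0.033 without the libraries that stood apart. In 4-week STR, Gria1 (-0.079) and Gria2 (-0.13) turned to 0.18 and 0.12 without them and Gria3 (0.12) became 0.28, and in 4-week SN Gria3 (-0.18) became -0.31, none of them called. Only KO 12 and KO 932 remain in KO in that STR fit. KO 12 held the highest 4-week STR values of Gria1 (795 CPM), Gria2 (863) and Gria3 (305), so the turned signs lean on that library. In 12-week STR, Gria1 held 521, 555, 536, 533 and 531 CPM in the 5 WT libraries and 585, 551, 555, 537 and 561 in the 5 KO libraries, so the groups overlapped (0.047 ± 0.045, adjusted p = 0.707). Gria2 there held 722 to 863 CPM in WT and 704 to 793 in KO (-0.015 ± 0.068, adjusted p = 0.963). Gria3 in 12-week STR was the pore subunit value with an unadjusted p under 0.05: 214 ± 16.5 CPM in WT and 237 ± 12.3 in KO (SD, n = 5 each), a difference of 0.14 ± 0.056 with adjusted p = 0.217.

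Cacng8 was lower in KO STR at both ages. At 12 weeks the WT libraries held 57.8, 49.9, 50.4, 52.2 and 47.3 CPM, the HET libraries 50.2, 50.6, 52.1, 47.3 and 46.5, and the KO libraries 45.3, 37.8, 43.5, 44.6 and 44.6. Every KO library lay below every WT library, which was so for 2.66% of genes, and HET overlapped WT, with HET 4 and HET 5 just under the lowest WT library. The means were 51.5 ± 3.93 CPM in WT and 43.1 ± 3.06 in KO (SD, n = 5 each). The fitted log2 change was -0.27 ± 0.061, a fall of 16.97% (adjusted p = 0.0171). This call held under all 6 alternative settings and without each of the 15 libraries in turn, the largest adjusted p being 0.0440.

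At 4 weeks the WT libraries of STR held 61.8, 69.8, 62.8, 56.9 and 75.1 CPM of Cacng8, the HET libraries 55.3, 61.9, 62.4, 62.2 and 55.4, and the KO libraries 57.0, 56.2, 51.8, 51.6 and 50.6. The highest KO library was level with the lowest WT library. The mean fell by 17.97%, from 65.3 ± 7.17 to 53.4 ± 2.93 CPM, a log2 change of -0.29 ± 0.069 (adjusted p = 0.0322). The call was lost without any 1 of KO 161, KO 163, KO 932, WT 92 or WT 914 (adjusted p up to 0.0823), with only WT and KO in the fit (0.110), and without the 4 STR libraries that stood apart (-0.26, adjusted p = 0.187). That last fit keeps only KO 12 and KO 932 in KO. Marker genes of cortical excitatory neurons were spread unevenly over the 4-week STR libraries, though none of the 9 was called. Their summed level was 46.7 to 849 CPM in WT, 38.3 to 153 in HET and 33.6 to 1561 in KO. Of 5 astrocyte markers Aqp4 (-0.58) and of 6 microglial markers C1qa (-0.35) and C1qb (-0.30) fell in the same comparison. Without the libraries that stood apart they were -0.70, -0.24 and -0.19, with only Aqp4 called, and the part of these cell types in the result was not tested.

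**Figure D4:**
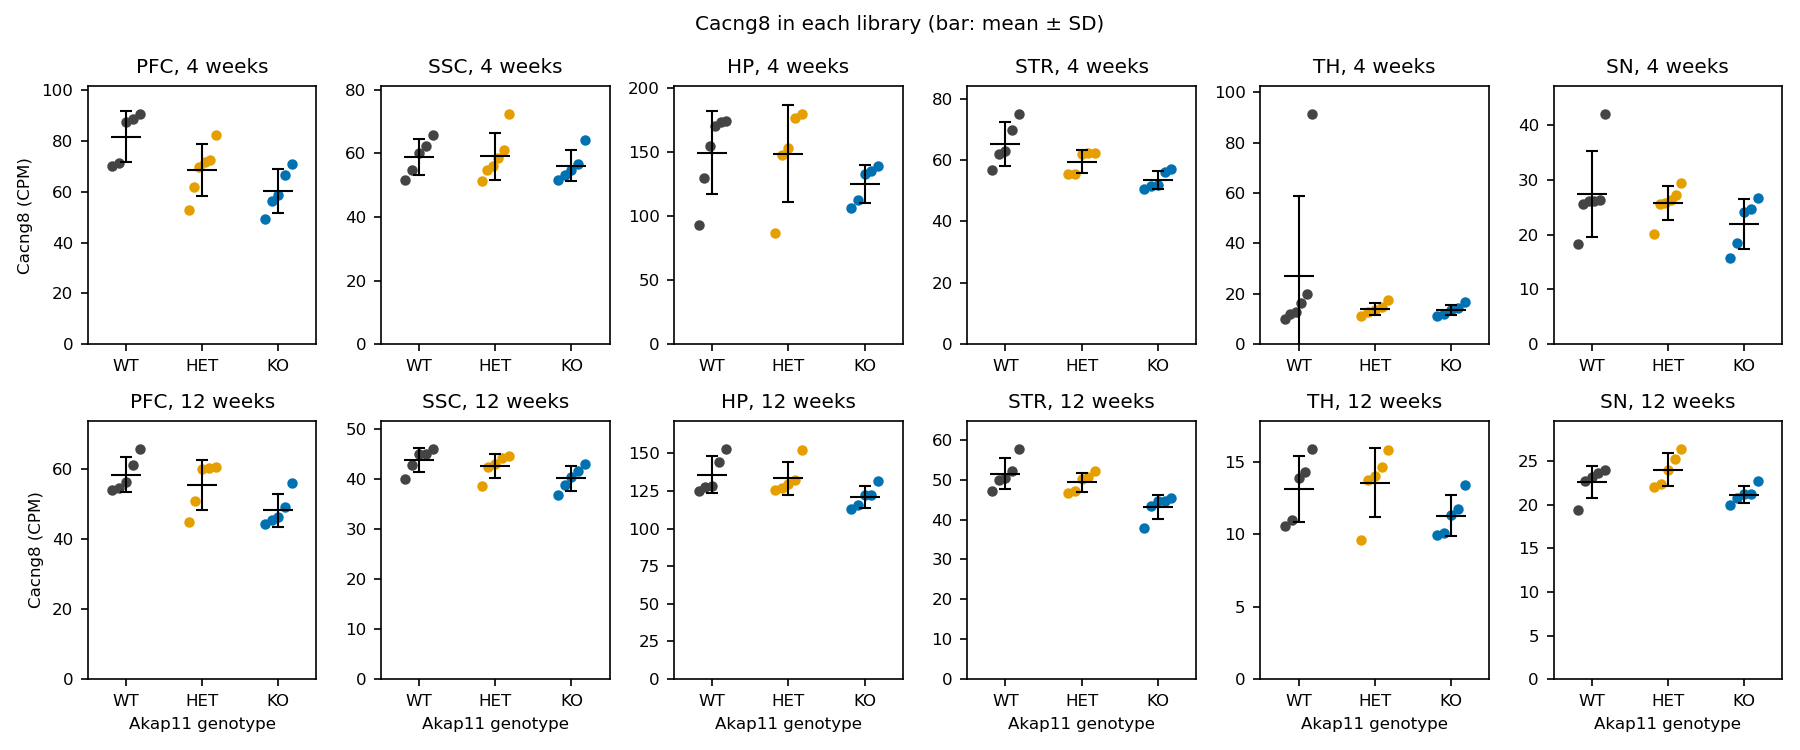
Cacng8 in CPM in every library, by region, age and genotype, with group means ± SD. In 12-week STR the KO points lie between 37.8 and 45.3 CPM and the WT points between 47.3 and 57.8, and a single 4-week TH WT library lies at 91.5.

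Outside STR the Cacng8 values also lay lower in KO, though none was called. Its fold change was below 0 in 12 of 12 sets, from -1.03 to -0.075 with a median of -0.26, and 6 sets had an unadjusted p under 0.05. Over all genes tested in every set, 0.296% were lower in KO in 12 of 12 sets. Gria2 was also below 0 in 12 of 12, from -0.46 to -0.0024, but in 11 of 12 by DESeq2 and without the libraries that stood apart. For Cacng8 the count remained 12 of 12 under every alternative run, the smallest difference being -0.013 without the libraries that stood apart. Libraries of different regions carry the same numbers, so the 12 sets may share animals.

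In 4-week PFC the WT libraries held 88.7, 70.3, 90.7, 71.3 and 87.3 CPM of Cacng8 and the KO libraries 66.4, 71.0, 49.2, 56.4 and 58.8, with a small overlap at 70.3 and 71.0 (-0.43 ± 0.12, adjusted p = 0.198). In 12-week PFC the values were 65.9, 56.4, 54.2, 54.5 and 61.1 in WT and 46.4, 56.1, 44.4, 45.3 and 49.3 in KO (-0.28 ± 0.088, adjusted p = 0.869). In 12-week HP, where Cacng8 was most abundant, WT ranged from 125 to 153 and KO from 113 to 131 CPM (-0.18 ± 0.067, adjusted p = 0.998). The lowest value, -1.03 in 4-week TH, came from WT 913 at 91.5 CPM among WT libraries otherwise at 10.2 to 20.1, and it was -0.013 without the libraries that stood apart.

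Averaged over the 6 regions in a single fit per age, Cacng8 was lower in KO by 0.40 ± 0.10 at 4 weeks (adjusted p = 0.0203) and 0.19 ± 0.035 at 12 weeks (adjusted p = 0.000673). In those averages 2.14% and 1% of genes were called. The average over the 5 regions without STR was -0.42 at 4 weeks (adjusted p = 0.0330, 1.32% of genes called) and -0.18 at 12 weeks (adjusted p = 0.0226, 0.106% of genes called). The 4-week average was not called without all libraries of KO 161 (adjusted p = 0.113) or of KO 932 (0.0576) in every region. It was not called without the libraries that stood apart (-0.22, adjusted p = 0.0773), nor was the average without STR in that last case (-0.21, adjusted p = 0.0910). With the sample number as a random block in limma-voom, the averages were -0.31 (adjusted p = 0.162) and -0.19 (adjusted p = 0.0535). For Cacng8 the KO change in STR did not pass the test against the mean over the other regions (0.14 ± 0.28 at 4 weeks, adjusted p = 0.922, and -0.091 ± 0.094 at 12 weeks, adjusted p = 0.818). The 4-week value turned to -0.035 without the libraries that stood apart (adjusted p = 0.984).

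Cacng2 was lower in 12-week KO STR, and its spread differed between the groups. The WT libraries held 117, 128, 71.5, 94.5 and 85.7 CPM, the HET libraries 73.1, 119, 94.5, 91.1 and 83.7, and the KO libraries 69.1, 72.5, 70.8, 69.7 and 70.7. WT 1 and WT 2 stood highest, the KO values lay between 69.1 and 72.5, and WT 3 lay among them. The means were 99.2 ± 22.9 CPM in WT and 70.6 ± 1.26 in KO. The fitted log2 change was -0.50 ± 0.14, a fall of 29.5% (adjusted p = 0.0437).

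That Cacng2 call was lost in 11 of the 15 fits that left out 1 library, with adjusted p up to 0.124 and changes from -0.60 to -0.40. It held without HET 1, HET 2, WT 3 or WT 5. It was also lost with the cortical marker score as a covariate (-0.43, adjusted p = 0.0962). The 9 cortical excitatory markers summed to 30.7 to 72.1 CPM in the WT and 43.9 to 59.0 in the KO libraries. The STR levels of Cacng2 at 4 weeks were 83.4 ± 9.51 in WT and 72.9 ± 4.90 CPM in KO (-0.19 ± 0.070, adjusted p = 0.152), called only without WT 913 (-0.25, adjusted p = 0.0341). The KO change at 12 weeks was lower in STR than in the mean of the other 5 regions by 0.45 ± 0.11 (adjusted p = 0.00560, 3.11% of genes called), the only member called in that comparison at either age. It was not called without the WT 1 libraries of all regions (adjusted p = 0.0572). That SE of 0.11 rests on a spread shared by all regions, and the STR change alone had an SE of 0.14 in its own fit.

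Cacng3 was not called in any KO set, and its fold change was below 0 in 11 of 12 of them. In 12-week STR its WT libraries held 258, 277, 166, 181 and 152 CPM and its KO libraries 169.6, 188, 170.2, 166 and 173, so that WT 1 and WT 2 were again highest and the rest overlapped KO (-0.27 ± 0.17, adjusted p = 0.513). In 12-week SSC the WT libraries held 159, 152, 163, 167 and 141 CPM and the KO libraries 137, 139.7, 132, 125 and 126. Those groups did not overlap, which was so for 0.428% of genes, but the change of -0.25 ± 0.060 was not called (adjusted p = 0.442). The lowest Cacng3 value was -1.29, in 4-week TH, where the WT libraries themselves ran from 2.77 to 34.8 CPM.

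The cornichons were not called in KO in any set. Cnih2 in 12-week STR ranged from 162 to 210.5 CPM in WT and 169 to 224 in KO (0.024 ± 0.086, adjusted p = 0.949). Cnih3 had the highest KO value of all 120, 1.03 ± 0.42 in 4-week STR (adjusted p = 0.206), where its WT libraries held 16.0, 38.7, 14.4, 11.4 and 11.1 CPM and its KO libraries 14.8, 63.0, 63.4, 30.8 and 13.9. The 4 libraries above 30 CPM are those that stood apart on cortical markers, and the change was 0.11 without them and 0.29 with the cortical marker score as a covariate. Without WT 92 alone it was 1.49 and called (adjusted p = 0.0419).

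In TH, Cnih3 lay higher in KO at both ages without being called. At 12 weeks the WT libraries held 118, 98.8, 75.5, 99.5 and 109 CPM and the KO libraries 127, 133, 122, 130.0 and 139.8, with no overlap (0.39 ± 0.13, adjusted p = 0.505). Every KO library exceeded every WT library for 0.998% of genes there. The change at 4 weeks was 0.63 ± 0.16 (133 ± 36.4 CPM in 6 WT and 207 ± 26.4 in 5 KO libraries), with adjusted p = 0.183 by edgeR and 0.0235 by DESeq2. By edgeR it was called without WT 142 (0.77, adjusted p = 0.0163), and it was 0.55 without the libraries that stood apart (adjusted p = 0.688). HET also lay above WT in TH without being called, by 0.41 ± 0.16 at 4 weeks (adjusted p = 0.249) and 0.43 ± 0.13 at 12 weeks (adjusted p = 0.390). Marker levels moved with this gene: in 12-week TH the 7 thalamic markers summed to 4047 to 4405 CPM in WT and 4635 to 5346 in KO, and the 9 cortical excitatory markers to 652 to 690.3 and 717 to 790.1 CPM. No marker of either list was called there, and their part in the result was not tested.

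Gsg1l was lower in KO STR at 12 weeks. The WT libraries held 314, 321, 247, 294 and 298 CPM, the HET libraries 263, 274, 301, 318 and 306, and the KO libraries 230.0, 172, 238, 231 and 216. Every KO library lay below every WT library, as for 2.66% of genes there, and HET overlapped WT throughout. The means were 295 ± 29.1 CPM in WT and 217 ± 26.4 in KO. The fitted log2 change was -0.45 ± 0.083, a fall of 26.9% (adjusted p = 0.00406). The call held under all 6 alternatives and without each of the 15 libraries, with adjusted p up to 0.0137.

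Markers of striatal projection neurons also changed in those libraries. Of the 9 in the list, Pde10a (-0.43) and Rgs9 (-0.49) fell and Tac1 (0.43) rose. Of 6 hippocampal markers Dsp (-1.98) fell and Spink8 (1.60) rose. The summed level of the striatal markers was 9795 to 13964 CPM in WT and 9782 to 12560 in KO, and no striatal marker was at 0. The 6 interneuron markers summed to 1364 to 1597 CPM in WT and 1593 to 1740.1 in KO, with Sst called (0.30), and the 6 oligodendrocyte markers to 4437 to 5953 and 5112 to 7843. Their part in the Cacng8, Cacng2 and Gsg1l results was not tested.

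At 4 weeks the STR libraries held 303, 302, 278, 232 and 345 CPM of Gsg1l in WT, 269, 274, 310.0, 259.8 and 225 in HET, and 305, 183, 165, 201 and 235 in KO. KO 12 lay among the WT values and the change was -0.42 ± 0.14 (adjusted p = 0.127). The 3 KO libraries that stood apart held the 3 lowest values. Without the STR libraries that stood apart, only KO 12 and KO 932 remain in KO, and the change was -0.11 (adjusted p = 0.755). Without KO 12 it was -0.57 and called (adjusted p = 0.0117). The KO change did not pass the test of a difference between ages in any region for any member (0 of 60 by edgeR and by DESeq2, 0% of all genes, with 3 at an unadjusted p under 0.05), and the difference between STR and the other regions was not called for Gsg1l (-0.57 at 4 weeks, adjusted p = 0.0791, 3.52% of genes called, and -0.31 at 12 weeks, adjusted p = 0.233). That 4-week difference was called without the libraries of KO 12 (-0.75, adjusted p = 0.0144) or of HET 941 (-0.59, adjusted p = 0.0257) in every region. It was -0.26 without the libraries that stood apart (adjusted p = 0.623).

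In 12-week SN, the other region with a called member, Gsg1l held 74.03, 78.4, 84.9, 83.7 and 85.9 CPM in WT, 102, 69.1, 82.2, 77.3 and 80.3 in HET, and 63.9, 57.6, 53.2, 57.0 and 57.1 in KO. All KO values lay below all WT and HET values, and every KO library was below every WT library for 0.728% of genes. The means were 81.4 ± 5.03 CPM in WT and 57.7 ± 3.89 in KO. The fitted log2 change was -0.50 ± 0.082, a fall of 29.3% (adjusted p = 0.0292). The call was lost in 10 of the 15 fits that left out 1 library, with changes from -0.54 to -0.47 and adjusted p up to 0.236, namely without HET 3 or 5, KO 2, 3, 4 or 5, or WT 2, 3, 4 or 5. It was also lost with the replicate number as a block (adjusted p = 0.105).

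Markers differed between the SN groups as well. None of the 8 dopamine neuron markers was called, and they summed to 3706 to 4845 CPM in WT and 2732 to 4205 in KO. The 7 thalamic markers summed to 234 to 339.8 CPM in WT and 331 to 403 in KO, and the 6 microglial markers to 269 to 313 and 191 to 246. No marker of these lists was at 0 in a whole group, and their part in the result was not tested. At 4 weeks SN Gsg1l was 44.4 ± 7.96 CPM in 6 WT and 48.6 ± 13.1 in 5 KO libraries (0.13 ± 0.19, adjusted p = 0.838), and the change was 0.26 without the libraries that stood apart (adjusted p = 0.616).

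**Figure D5:**
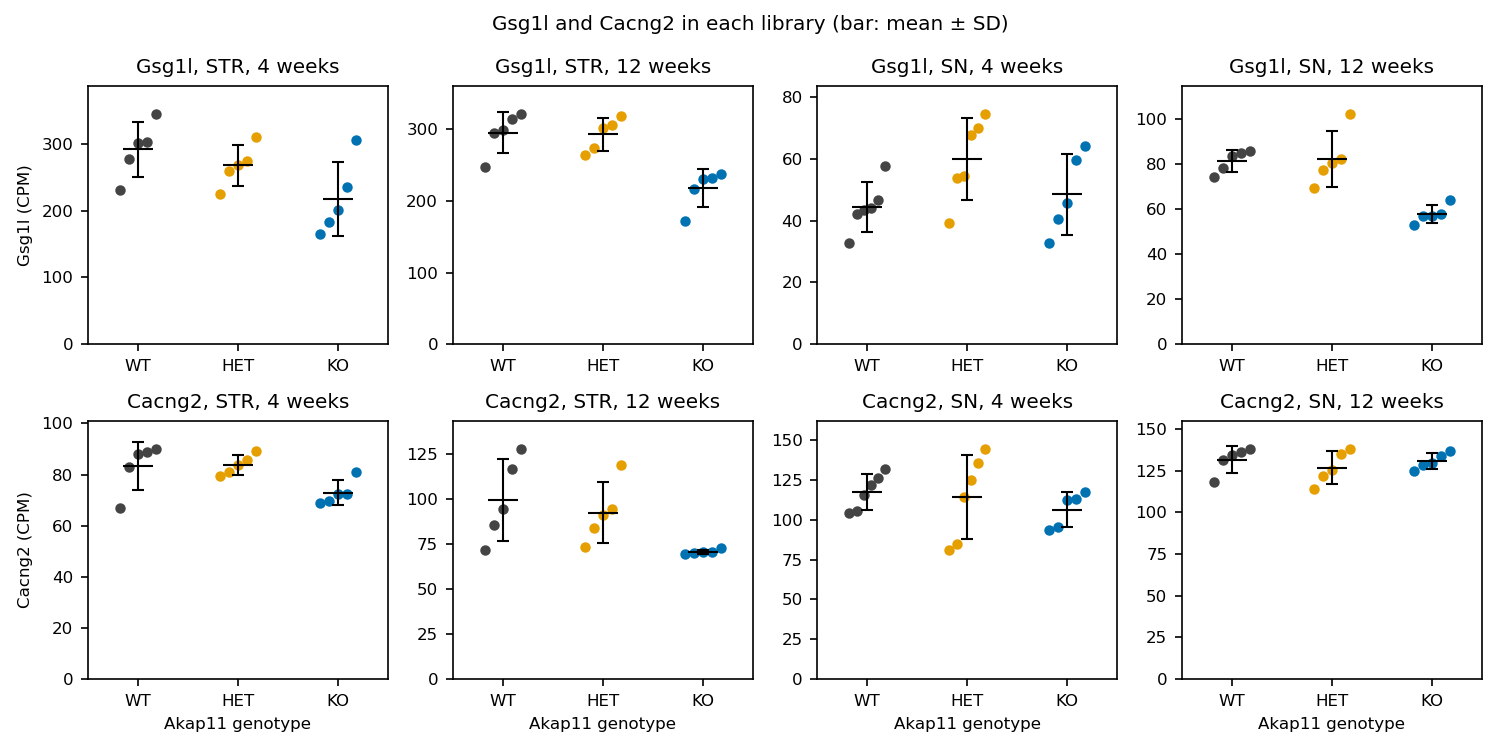
Gsg1l (top) and Cacng2 (bottom) in STR and SN, in CPM per library, by age and genotype, with group means ± SD. The KO points of Gsg1l lie below all WT points at 12 weeks in both regions, and the WT points of Cacng2 in 12-week STR spread from 71.5 to 128 CPM while KO stays near 70.6.

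Averaged over the 6 regions, Gsg1l was lower in KO at 12 weeks by 0.20 ± 0.047 (adjusted p = 0.0177). The call was lost without all libraries of KO 5 (adjusted p = 0.0527) or of WT 1 (0.0904) in every region, and in limma-voom with the sample number as a random block (-0.19, adjusted p = 0.338). Over the 5 regions without STR it was -0.15 (adjusted p = 0.326). At 4 weeks the average was 0.062 ± 0.070 (adjusted p = 0.706), and 0.12 without the libraries that stood apart (adjusted p = 0.519). In TH at 4 weeks it lay higher in KO, 59.6 ± 13.2 CPM in 6 WT and 78.5 ± 9.76 in 5 KO libraries (0.39 ± 0.15, adjusted p = 0.291).

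No member was called in HET in any set, where 0.00521% of all values over all genes were called. Those 10 called values were all Akap11 itself. Even Akap11 was not called in HET in 4-week HP (-0.82, adjusted p = 0.273) or 4-week SN (-0.69, adjusted p = 0.548). Of 120 values 13 had an unadjusted p under 0.05, the smallest adjusted p was 0.249 for Cnih3 in 4-week TH, and DESeq2 called 0 as well. In STR, where KO was called, HET changes at 12 weeks were -0.062 ± 0.061 for Cacng8, -0.11 ± 0.13 for Cacng2 and -0.012 ± 0.083 for Gsg1l, each with an adjusted p over 0.99. In 12-week SN the HET change of Gsg1l was 0.019 ± 0.081 (adjusted p = 0.978). Averaged over regions, HET Cacng8 was -0.24 ± 0.099 at 4 weeks (adjusted p = 0.544, and -0.096 without the libraries that stood apart) and -0.012 ± 0.035 at 12 weeks (adjusted p = 0.986), where 0.119% and 0.0056% of genes were called.

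Between 4 and 12 weeks in WT, 11 of 60 values were called, 9 lower and 2 higher at 12 weeks, while 20.6% of all values over all genes were called. Age and anything else that differed between the 4-week and 12-week libraries cannot be told apart. Cacng8 fell in PFC from 81.6 ± 10.01 to 58.4 ± 5.01 CPM (-0.48 ± 0.11, adjusted p = 0.00239, 19.1% of genes called). It fell in SSC from 59.0 ± 5.70 to 43.8 ± 2.39 (-0.42 ± 0.076, adjusted p = 0.000124, 27.1% called). In STR it fell from 65.3 ± 7.17 to 51.5 ± 3.93 (-0.31 ± 0.064, adjusted p = 0.000877, 18.5% called).

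In TH the Cacng8 age change was -1.07 ± 0.37 (adjusted p = 0.0386, 22.6% of genes called), -0.11 without WT 913 (adjusted p = 0.690), and -0.058 without the 3 TH libraries that stood apart (adjusted p = 0.863). The call was also lost without 12-week WT 1, 2, 3 or 4. In SN, Cacng8 was not called, but it was lower at 12 weeks by 0.41 without the libraries that stood apart (adjusted p = 0.00933). No member was called in HP by edgeR, where 17.7% of genes were. DESeq2 called Gria3 there (0.25, adjusted p = 0.0448), as did edgeR without 4-week KO 12, KO 161, WT 913 or WT 92 (adjusted p up to 0.0490). Cnih2 fell in SSC from 129 ± 28.0 to 82.8 ± 4.61 CPM (-0.63 ± 0.12, adjusted p = 0.000192), and in STR by 0.32 ± 0.11 (adjusted p = 0.0480), a call lost in 13 of 20 fits without 1 library and without the libraries that stood apart (-0.26, adjusted p = 0.124). Gria4 fell in SSC by 0.14 ± 0.054 (adjusted p = 0.0485), also lost in 13 of 20.

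Gsg1l moved in opposite directions with age in SN and TH. It rose in SN from 44.4 ± 7.96 to 81.4 ± 5.03 CPM (0.87 ± 0.15, adjusted p = 0.000231, 18.6% of genes called) and fell in TH from 59.6 ± 13.2 to 35.7 ± 2.81 (-0.74 ± 0.15, adjusted p = 0.000577). Both calls held without each library in turn. In SN the 6 libraries at 4 weeks held 32.8 to 57.5 CPM and the 5 at 12 weeks 74.03 to 85.9. Cacng2 rose in TH from 130.1 ± 19.8 to 174 ± 11.5 CPM (0.42 ± 0.072, adjusted p = 0.000139). Cnih3 in SN was lower at 12 weeks by 1.54 ± 0.53 (adjusted p = 0.0425), with 94.4 CPM in 4-week WT 42 and 42.6 in WT 92 against 11.0 to 16.8 in the others, and the difference was -0.79 without WT 42 (adjusted p = 0.242) and -0.25 without WT 42 and WT 92 and the KO libraries that stood apart (adjusted p = 0.436).

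The other genes of the AMPA receptor system were taken from 3 lists chosen with earlier results of these data known. These hold 20 further auxiliary and interacting membrane proteins, 16 scaffold and trafficking proteins, and 4 pentraxin and RNA editing genes. Of their 480 KO values 9 were called, all in STR, and of their 480 HET values 0, beside 0.644% and 0.00521% over all genes. In STR 3.35% of genes were called at 4 weeks and 4.42% at 12. Of the 20 auxiliary genes, 1 rose and 1 fell at each age in STR. Of the 16 scaffold genes, 1 rose and 1 fell at 4 weeks and 0 were called at 12. Of the 4 pentraxin and editing genes, 1 rose at 4 weeks, and 1 rose and 1 fell at 12.

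Cacng7, a TARP relative of the members, rose in KO STR at both ages. It went from 90.0 ± 13.4 to 136 ± 12.9 CPM at 4 weeks (0.60 ± 0.089, adjusted p = 0.00135) and from 100.2 ± 9.01 to 138 ± 13.3 at 12 weeks (0.45 ± 0.073, adjusted p = 0.00151). Its lowest KO and highest WT libraries held 118 and 108 CPM at 4 weeks, and 116 and 111 at 12 weeks. Both calls held without each of 15 libraries in turn and under 6 alternatives, these fits being chosen after seeing the data. Its direction was thus opposite to that of Cacng8 in the same libraries.

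Syndig1, which encodes an AMPA receptor-binding membrane protein, fell in KO STR from 73.2 ± 7.43 to 52.1 ± 9.13 CPM at 4 weeks (-0.49, adjusted p = 0.0112) and from 64.9 ± 2.23 to 56.1 ± 4.29 at 12 weeks (-0.22, adjusted p = 0.0310). Without the libraries that stood apart the 4-week change was -0.29 (adjusted p = 0.0954), and the 12-week call was lost without any 1 of KO 1, 2, 3 or 5 or WT 2, 3, 4 or 5.

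Adarb1, the enzyme that edits Gria2 transcripts, rose from 165 ± 17.5 to 205 ± 12.9 CPM at 4 weeks (0.31, adjusted p = 0.0250) and from 162 ± 10.8 to 186 ± 10.5 at 12 weeks (0.19, adjusted p = 0.0385). The 4-week call was lost without any 1 of KO 51 or WT 42, 142 or 913, and without the libraries that stood apart (0.35, adjusted p = 0.0545). The 12-week call was lost without any 1 of HET 3, KO 1, 3, 4 or 5, or WT 1, 2 or 3. Editing itself was not analysed here. Akap5, a scaffold that holds PKA at AMPA receptors, fell at 4 weeks from 505 ± 41.7 to 345 ± 71.4 CPM (-0.55, adjusted p = 0.0182), a call lost without WT 914 (-0.50, adjusted p = 0.0574) and without the libraries that stood apart (-0.30, adjusted p = 0.238). Grip1, a scaffold for Gria2 and Gria3 products, rose at 4 weeks from 22.3 ± 1.17 to 26.8 ± 1.89 CPM (0.27, adjusted p = 0.0294), a call lost without any 1 of KO 51 or 161 or WT 42, 142 or 914, and without the libraries that stood apart (0.25, adjusted p = 0.130). With only WT and KO in the fit the 4-week calls of Syndig1, Adarb1, Akap5 and Grip1 were lost (adjusted p from 0.0695 to 0.141), as was the 12-week Adarb1 call (0.0872). That 12-week call was also lost without the low-count filter (adjusted p = 0.0603) and with the cortical marker score as a covariate (0.0657). With that covariate the 12-week Syndig1 (adjusted p = 0.0512) and 4-week Grip1 (0.0517) calls were lost too.

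Nptx1, a secreted pentraxin that gathers AMPA receptors, fell in 12-week KO STR from 27.2 ± 2.81 to 13.9 ± 3.75 CPM (-0.97 ± 0.15, adjusted p = 0.00119). Its WT libraries ranged from 22.6 to 30.1 and its KO libraries from 9.78 to 19.4. Every KO library was thus below every WT library, as for 2.66% of genes there, and the call held without each of 15 libraries. At 4 weeks its KO libraries ran from 16.8 to 430.1 CPM and its WT libraries from 24.2 to 237, the same libraries being uneven in cortical markers.

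Over the 12 WT group means, the member pairs most alike beside Gria1 and Cacng8 were Gria1 and Cnih2 (r = 0.89), Gria2 and Cacng3 (0.87), Gria4 and Cacng2 (0.81), and Cacng3 and Gsg1l (0.76). Gria1 and Cacng2 ran in opposite directions (-0.90). Among 10655 genes with a mean log2(CPM + 1) of at least 3, the closest profile to each member by the same r over the same 12 means was Ptbp1 for Gria1 (0.976), Ppp1r1a for Gria2 (0.989), Zfr for Gria3 (0.983), Ppp1r3f for Gria4 (0.965), Dffa for Cacng2 (0.986), Crip2 for Cacng3 (0.989), Trit1 for Cacng8 (0.984), Epha7 for Cnih2 (0.957), Wnt9a for Cnih3 (0.986) and Sik2 for Gsg1l (0.961). These means share the libraries and the scale, each region enters at both ages, and they carry no test.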

How the data were processed

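The authors deposited a table of expected counts per gene symbol, meaning estimated counts that need not be whole (77.9% of values above 0 were not). In 16 of the 4-week libraries the share of whole values was at most 5.55%, against at least 17.3% in all others. The reason is not given. With this split as a covariate at 4 weeks, 5 member values were called in KO, as without it. Per the labels' protocols, regions were cut from frozen brain in a cryostat, RNA came from RNeasy columns, and 200 ng entered the TruSeq Stranded mRNA kit. Salmon and mm10 are named in the submitters' processing notes. The annotation and the strand setting were not given in the sources used here.

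Expected counts were rounded and fitted with edgeR 4.0.16 in R 4.3.3 (TMM, filterByExpr, glmQLFit, glmQLFTest): 1 fit per region and age with the 3 genotypes, 1 per region over both ages, and 1 per age over all regions. SE is the log2 fold change divided by the square root of F. CPM were TMM-scaled over all 186 libraries. Lengths and positions are from GENCODE M21, where 95.5% of symbols matched. Library totals ran from 20.8 to 73.3 M (mega) counts, and members had at least 120 counts. Chi-square per degree of freedom was at least 8.36 in 390 replicate pairs, and each library counted once. On simulated counts for 12-week STR, 53.1% of changes of 0.5 log2 were recovered. DESeq2 1.42.0 and limma 3.58.1 were alternatives. The members, lists and libraries named as standing apart were chosen with earlier results of these data known. Genes named beyond the members are the called genes of the 3 lists, called marker genes and, per member, the closest profile.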

Additional observations from a re-analysis of the deposited data

Results flagged for a closer look

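Of 360 groups of 5 or 6 libraries examined, 1 for each member in each of 36 groups, 37 (10.3%) held a highest or lowest library that lay far from the rest of its group. The cut-off would flag about 1 in 20 groups of normally distributed values. The members share libraries, so the 360 are not independent, and whether 37 exceeds chance was not tested. The largest number came from TH WT 913 at 4 weeks, which was high for Gria1 (705 CPM), Gria2 (330), Cacng8 (91.5) and Cnih2 (259). In that library the 6 hippocampal markers summed to 318 CPM, the highest value among the 4-week WT TH libraries. Other 4-week TH values far from their groups were Cacng2 in HET 11 (153 CPM), Cacng3 in KO 163 (15) and Cnih3 in HET 162 (125).

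In 4-week PFC, WT 914 was high for Gria1 (588 CPM), Cnih2 (233) and Cnih3 (213), and HET 941 was high for Gria1 (579), Gria2 (810) and Gria3 (418). Cacng2 in HET 93 (76.6 CPM) and Cnih2 in KO 44 (180) also lay apart there. At 12 weeks the PFC values were Gria2 in KO 2 (438 CPM) and Gria3 in WT 1 (300).

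In SSC, HET 2 at 12 weeks was far from its group for Cacng2 (212 CPM) and Cnih3 (102), HET 931 at 4 weeks for Cacng3 (214) and WT 142 at 4 weeks for Gria4 (134). In HP, HET 941 at 4 weeks was high for Cacng3 (133 CPM) and Gsg1l (77.7). The 12-week HP values were Cacng8 in HET 1 (152 CPM), Cnih3 in WT 3 (49.1), Gria1 in WT 2 (1430) and Gria4 in KO 3 (41.6).

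In STR, 4-week values apart from their groups were Cacng2 in KO 932 (81.2 CPM), Cnih2 in HET 931 (198) and Cnih3 in WT 92 (38.7), and 12-week values were Cacng8 in KO 2 (37.8) and Gria2 in HET 2 (952). In SN the 4-week values were Cacng8 in WT 23 (42.0 CPM) and, in KO 91, Cnih2 (84.3) and Cnih3 (80.6). The 12-week SN values were Cacng8 in WT 2 (19.4 CPM) and Cnih3 in HET 2 (17.2).

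The change of Cacng2 in KO at 12 weeks differed between STR and the mean of the other 5 regions by -0.455 on the log2 scale (adjusted p = 0.00560 by edgeR). The call was lost without the WT 1 libraries of all regions (adjusted p = 0.0572). Its SE of 0.11 came from a spread shared by all regions, and the STR change alone had an SE of 0.14 in its own fit.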

How the results depend on the processing

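The number of member values called in KO was 5, and 4 to 6 under the alternatives and without each library. Each fit without 1 library covered only its own region and age, so this total could move little. Of 15 such fits, the Cacng8 call in 4-week STR was lost in 5. The Cacng2 call in 12-week STR was lost in 11 of 15, and the Gsg1l call in 12-week SN in 10. In HET the number called was 0 throughout, as it was for the difference in KO change between ages. The fits over all regions were repeated without each numbered sample, which took its libraries out of every region at once. The 3 calls of the KO averages over regions became 0 in limma-voom with the sample number as a random block, whose within-number correlation was 0.037 at 4 weeks and 0.11 at 12. They were 2 to 4 without each numbered sample. The 1 call of STR against the other regions became 0 to 2 in this way: 0 without 12-week WT 1, and 2 without 4-week HET 941, KO 12, WT 92 or KO 91. Calls between WT regions were 241 (231 to 250 under the alternatives, 236 to 248 without each numbered sample), and calls with age 11 (8 without a low-count filter, 14 by DESeq2, 10 to 13 without each library).

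Of the alternatives for the single called values, 369 kept direction and call, 83 lost the call and 0 reversed. The 12-week replicate numbers recur in every genotype. Of 90 same-numbered pairs 63 had deviations correlated over 0.1 (r from -0.27 to 0.81), and 53 of 90 libraries correlated best with their own number, but not every pair was over 0.1 and the labels do not say what a number marks, so the numbers were not taken to pair the samples; the best matches are a hint from the data, not the design. With the replicate block at 12 weeks 4 KO values were called in place of 5, Gsg1l in SN being the one lost (-0.50, adjusted p = 0.105).

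The lowest member value was 120 counts. In simulated counts of 12-week STR, 53.1% of changes of 0.5 log2 were recovered and 82.0% of changes of 1.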

Other observations

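The shares of the pore subunits held further regional detail. In WT libraries of SSC, per kilobase of exon, Gria1 and Gria2 were nearly level (32.9 ± 0.79% and 31.2 ± 0.70% of the 4 pore subunits at 12 weeks, SD, n = 5), and in SN Gria4 exceeded Gria2 (26.5 ± 1.56% against 15.5 ± 0.77%). In 12-week TH, Gria4 and Gria3 each exceeded Gria2 (29.5% and 23.2% against 9.78%). These shares depend on the length used. With the longest transcript, 12-week SSC held 25.6% Gria1 and 33.5% Gria2, and 12-week TH 25.5% Gria4 and 32.7% Gria3. At 4 weeks the TH share of Gria1 ran from 14.1% to 67.9% between the 6 WT libraries.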
